A study of Mus musculus with 9 samples.

Results

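The genes described here encode the MHC class II antigen presentation pathway, 7 of the 55253 gene symbols in the deposited liver table, chosen by name: H2-Aa, H2-Ab1, H2-Eb1, Cd74, H2-DMa, H2-DMb1 and Ciita. Liver RNA of 9 male C57Bl/6J mice was read by 3′ mRNA sequencing, which counts reads at transcript ends. The treated group (WD+alcohol, 5 mice, aged 10 weeks at the start) received a Western diet (WD) and 10% alcohol in sweetened drinking water for 23 weeks, and the control group (4 mice) received chow and tap water. The controls differed in diet, sugar and alcohol at once, so the comparison measures the joint effect. All 7 genes were found in the table and passed the filter, a mean of 1 CPM or more (read counts relative to library size, scaled by the TMM method).

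MHC class II molecules are pairs of an alpha and a beta chain that display peptides from endosomes to CD4+ T cells. The chains are built in the endoplasmic reticulum with the invariant chain, which blocks the groove until endosomal proteases trim it to a short fragment, and DM then exchanges that fragment for a peptide, while DO restrains DM. In the liver, Kupffer cells, dendritic cells and B cells carry class II molecules, sinusoidal endothelial cells carry some, and resting hepatocytes carry little. CIITA is a coactivator with no DNA-binding domain of its own. It switches the other genes of the group on by docking to factors bound at the X and Y boxes of their promoters.

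The X and Y box layout is shown here because it is a reason class II genes are usually read as a unit. Of 12 class II genes looked up, 8 had an entry among the RefSeq promoter windows of build GRCm38.p6 (250 bases before to 50 after a start site), 4 of them among the 7 genes. H2-Ab1, Cd74, Ciita and H2-Ea had no entry, so their promoters were not searched. The windows were searched on both strands for the core of the X box (GNAAC), the core of the Y box (ATTGG), and GNAAC followed after 20 to 35 bases by ATTGG, a spacing set with class II promoters in view. The pair stood in the gene's own orientation in 6 of the 8 genes (H2-Aa, H2-Eb1, H2-DMb1, H2-Oa, H2-Ob and H2-Eb2), and in neither strand of the windows of H2-DMa and H2-DMb2. Among all 32851 windows, 2.67% held the pair on either strand, 37.4% held ATTGG and 84.8% held GNAAC. The 120 bases before the start are printed 5′ to 3′ for 3 of the 7 genes and for H2-Oa, with GNAAC and ATTGG in capitals. They lie at chr17:34287824-34287943 on the minus strand (H2-Aa), chr17:34305747-34305866 on the plus strand (H2-Eb1), chr17:34153071-34153190 on the plus strand (H2-DMb1) and chr17:34092259-34092378 on the plus strand (H2-Oa).
H2-Aa: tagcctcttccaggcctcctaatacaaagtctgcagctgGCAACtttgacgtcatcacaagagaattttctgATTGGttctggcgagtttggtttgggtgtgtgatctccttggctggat
H2-Eb1: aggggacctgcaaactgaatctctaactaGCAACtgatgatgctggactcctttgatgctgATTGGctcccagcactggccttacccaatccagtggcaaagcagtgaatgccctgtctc
H2-DMb1: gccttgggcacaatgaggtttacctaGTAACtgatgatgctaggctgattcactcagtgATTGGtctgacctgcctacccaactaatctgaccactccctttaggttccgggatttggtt
H2-Oa: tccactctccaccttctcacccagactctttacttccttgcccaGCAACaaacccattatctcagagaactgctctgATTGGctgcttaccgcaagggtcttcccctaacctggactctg
The gap between the capitals was 27 bases in H2-Eb1 and 28 bases in H2-Aa, H2-DMb1 and H2-Oa. The ATTGG began 43 to 61 bases before the start in these 4 genes. A match describes letters and not a bound site.

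Reads in genes numbered 3635860 to 6643645 in WD+alcohol livers and 5050763 to 5910285 in control livers, and no pair of libraries was alike within counting noise (chi-square over its degrees of freedom 5.82 or more). Each of the 4 most abundant class II genes had at least 1377 reads in every library and each of the other 3 at least 116. Among the 14759 genes tested, limma-trend called 338 (2.29%) below an adjusted p of 0.05 (Benjamini-Hochberg), and 201 without WD+alcohol 5. The liver marker Alb, albumin, averaged 18880 ± 3597 CPM in WD+alcohol livers and 33500 ± 6566 CPM in control livers (SD, n = 5 and n = 4) and was called lower, as was Apoa1, with 0 of the other 6 hepatocyte markers called; none of the 8 was called without any one of WD+alcohol 1, 2 and 5 or control 1, 2, 3 and 4.

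With Western diet and alcohol, transcripts of the class II genes differed little from control livers. None of the 7 genes was called (0 of 7, against 2.29% of all genes tested), with limma-trend, with edgeR or with DESeq2. All 7 fold changes were above 1, as were 49.9% of those of all genes tested, and they ran from 1.06-fold to 1.23-fold. The median log2 fold change of the 7 was 0.16 beside -0.001 for all genes tested. Before adjustment 2 of the 7, Cd74 and H2-DMa, had p under 0.05, both higher, against 12.2% of all genes in either direction and 7.41% higher. H2-Aa and H2-DMa, 2 of the 7, had groups that stood apart, both higher, against 5.34% of all genes in either direction and 3.34% higher. The upper 95% limit of the fold change was at most 1.41, that of H2-DMa. In whole liver, a change in the number of cells of a type and a change in RNA per cell cannot be told apart.

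**Figure D1:**
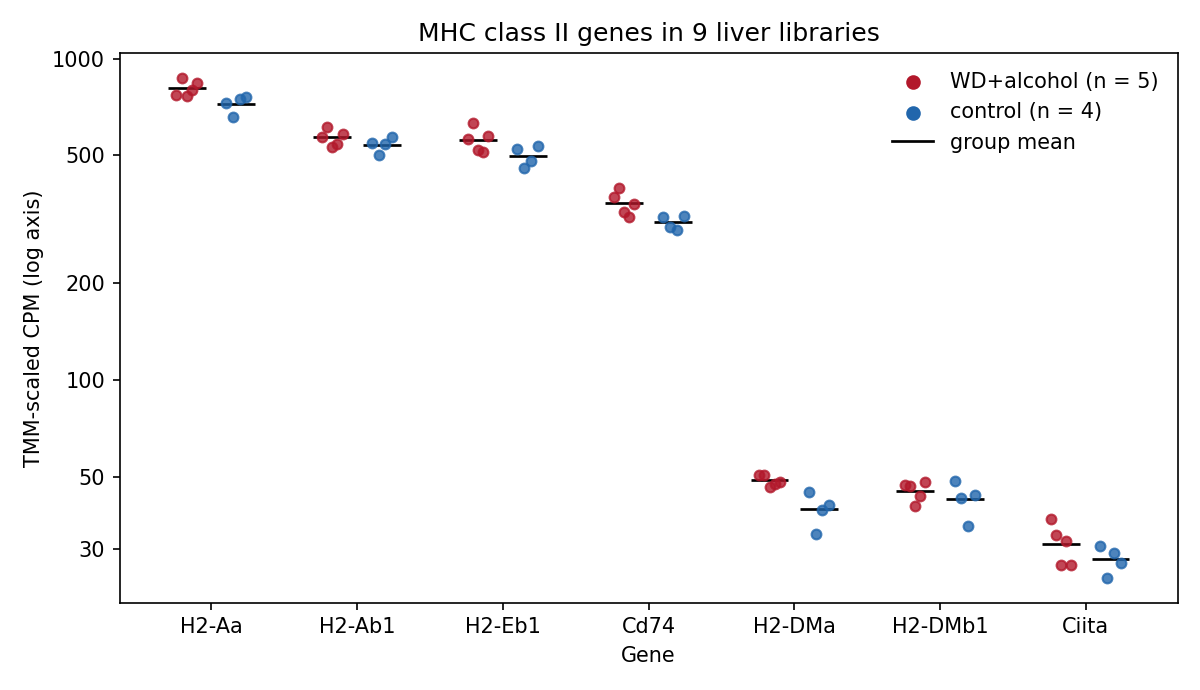
TMM-scaled CPM (log axis) of the 7 class II genes in each of 5 WD+alcohol livers (red) and 4 control livers (blue), with group means as black lines. The red and blue points of H2-Aa and H2-DMa do not overlap, and those of the other 5 genes do.

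The peptide-binding chains come first. H2-Aa, the alpha chain of I-A, had 769, 870, 766, 801 and 840 CPM in WD+alcohol livers, against 729, 657, 750 and 757 CPM in control livers. All 5 WD+alcohol values lay above all 4 control values, by a narrow margin, since 766 CPM stood next to 757 CPM. The fold change was 1.12 (95% interval 0.999 to 1.25; limma-trend adjusted p = 0.417), which is no call. H2-Ab1, the beta chain that pairs with H2-Aa, had 572, 615, 532, 544 and 585 CPM in WD+alcohol livers, against 545, 500, 543 and 570 CPM in control livers. These groups overlapped, with WD+alcohol 3 below 3 of the 4 controls, and the fold change was 1.06 (log2 scale 0.08, 95% interval -0.08 to 0.23; limma-trend adjusted p = 0.753). H2-Eb1, the beta chain of I-E, had 563, 630, 519, 511 and 573 CPM in WD+alcohol livers, against 523, 458, 479 and 536 CPM in control livers. Again the groups overlapped, and the fold change was 1.12 (95% interval 0.989 to 1.27; limma-trend adjusted p = 0.46). C57BL/6 mice carry a deleted I-E alpha gene and so put no I-E on the cell surface. That alpha gene, H2-Ea, stood at 1.22 ± 0.384 CPM in WD+alcohol livers and 0.741 ± 0.528 CPM in control livers (SD, n = 5 and n = 4), which is 0 to 10 reads a library, while its partner H2-Eb1 had 2088 to 4126 reads.

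Cd74 encodes the invariant chain, the chaperone of new class II dimers, which also serves as a surface receptor for the cytokine MIF. It had 371, 396, 333, 321 and 353 CPM in WD+alcohol livers, against 322, 300, 293 and 324 CPM in control livers. WD+alcohol 4 stood below 2 of the controls, and the other 4 WD+alcohol libraries stood above all controls. The fold change was 1.14 (95% interval 1.02 to 1.28), and the adjusted p was 0.298 (limma-trend). Per unit of summed H2-Aa, H2-Ab1 and H2-Eb1, the level of Cd74 was 0.183 ± 0.0088 in WD+alcohol livers and 0.176 ± 0.00861 in control livers (SD, n = 5 and n = 4), with overlapping values.

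H2-DMa and H2-DMb1 encode the chains of DM, the peptide editor. H2-DMa had 50.7, 50.9, 46.7, 47.6 and 48.4 CPM in WD+alcohol livers, against 44.8, 33.4, 39.6 and 40.9 CPM in control livers. Every WD+alcohol value exceeded every control value, and the WD+alcohol libraries were closely grouped, with a coefficient of variation of 3.79% against 11.9% in controls. This was the largest fold change among the 7 genes, 1.23 (95% interval 1.07 to 1.41), and it was not called (limma-trend adjusted p = 0.129; 0.0938 to 0.504 over 19 alternatives). H2-DMb1 had 47.2, 47.1, 40.5, 43.6 and 48.2 CPM in WD+alcohol livers, against 48.8, 43.1, 35.3 and 44.0 CPM in control livers. Control 1 was the highest of all 9 libraries, no WD+alcohol value exceeded it, and the fold change was 1.06 (95% interval 0.916 to 1.23; limma-trend adjusted p = 0.805). H2-DMb1 has a close copy, H2-DMb2, whose longest transcript was 90.7% identical over 1209 aligned bases with a longest identical run of 221 bases, so reads could be shared between them. H2-DMb2 stood at 6.87 ± 0.72 CPM in WD+alcohol livers and 7.04 ± 1.87 CPM in control livers (SD, n = 5 and n = 4).

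Ciita encodes the coactivator that controls the other 6 genes. It had 37.2, 33.003, 26.7, 31.7 and 26.6 CPM in WD+alcohol livers, against 30.5, 24.4, 29.0 and 27.1 CPM in control livers. WD+alcohol 1 was the highest and control 2 the lowest, the groups overlapped, and the fold change was 1.11 (95% interval 0.933 to 1.32; limma-trend adjusted p = 0.695). In GENCODE M21, Dexi lies on the opposite strand across the 3′ end of Ciita, where 3′ libraries collect their reads, and the labels do not say whether counting used strand. Dexi had 14.3, 14.4, 21.96, 20.6 and 19.4 CPM in WD+alcohol livers, against 22.1, 30.04, 17.6 and 21.4 CPM in control livers, and was lowest in WD+alcohol 1, where Ciita was highest. Their part in each other's values was not tested. Brd2 overlaps H2-DMa on the opposite strand without reaching its 3′ end, and averaged 440 CPM in WD+alcohol livers and 434 CPM in control livers.

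**Figure D2:**
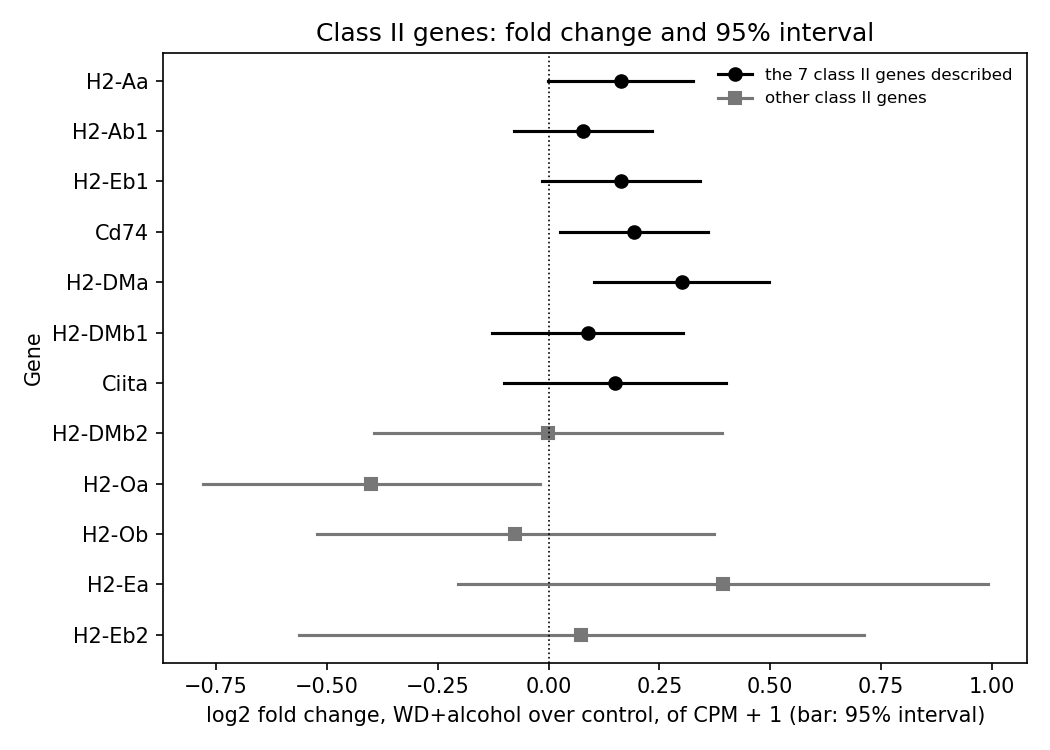
Log2 fold change of CPM + 1, WD+alcohol over control, with its 95% interval (limma-trend, n = 5 and n = 4), for the 7 class II genes described (black circles) and 5 other class II genes (grey squares). The black circles lie between 0.08 and 0.30, and the intervals of Cd74, H2-DMa and H2-Oa leave out 0 before adjustment.

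The order of levels was nearly fixed. Since 3′ counts do not grow with transcript length, levels of different genes were set side by side in CPM, with no account of how well each 3′ end is captured. H2-Aa was the most abundant of the 7 in every library (rank 130 among all genes in WD+alcohol livers and 163 in control livers), Cd74 was the fourth and Ciita the lowest. H2-Eb1 per H2-Ab1 was 0.981 ± 0.031 in WD+alcohol livers and 0.925 ± 0.033 in control livers (SD, n = 5 and n = 4), with H2-Eb1 below H2-Ab1 in all libraries but WD+alcohol 2, where the ratio was 1.026. The distance from an equal level was within the spread in WD+alcohol livers and beyond it in control livers. H2-DMa and H2-DMb1 were also neighbours: H2-DMa per H2-DMb1 ran from 1.004 to 1.15 in WD+alcohol livers and from 0.776 to 1.12 in control livers, and these ranges overlapped. DM transcripts amounted to 4.87 ± 0.186 per 100 of the 3 chains in WD+alcohol livers and 4.68 ± 0.408 in control livers. Ciita amounted to 1.60 ± 0.238 per 100 of the 3 chains in WD+alcohol livers and 1.58 ± 0.111 in control livers.

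Mice of 1 group differed little in H2-Aa and H2-Ab1. The coefficient of variation of H2-Aa was 5.59% in WD+alcohol livers and 6.36% in control livers, and that of H2-Ab1 was 5.77% in WD+alcohol livers and 5.38% in control livers. H2-Eb1 reached 8.6% in WD+alcohol livers and 7.35% in control livers, and Cd74 reached 8.49% in WD+alcohol livers and 5.12% in control livers. The medians over the 6404 tested genes averaging 20 CPM or more were 9.87% in WD+alcohol livers and 9.99% in control livers. That set includes genes far less abundant than H2-Aa and H2-Ab1. Ciita was the most variable of the 7 within WD+alcohol livers, at 14.5%, and H2-DMb1 within control livers, at 13.1%. Both exceeded those medians, as did H2-DMa within control livers, at 11.9%. WD+alcohol 2 held the highest value of the 9 libraries for 5 of the 7 genes, and control 2 the lowest for 5. Set against the control mean of each gene, the median over the 7 genes was 120% in WD+alcohol 2, 114% in WD+alcohol 5 and 113% in WD+alcohol 1. It was 104% in both WD+alcohol 3 and WD+alcohol 4, against 105% in both control 1 and control 4, 99.8% in control 3 and 91.7% in control 2. These medians of WD+alcohol 3 and 4 lay within the range of the control medians, though both libraries exceeded every control for H2-Aa and H2-DMa.

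DO, the restrainer of DM, and the other class II genes were far less abundant. H2-Oa, its alpha chain, had 4.58, 4.58, 5.07, 6.36 and 3.80 CPM in WD+alcohol livers, against 6.26, 6.51, 5.56 and 8.72 CPM in control livers. An antisense gene across its 3′ end, BC051537, had 0 reads. The H2-Oa values rest on 17 to 46 reads a library, the groups overlapped, and the fold change was 0.758 (95% interval 0.582 to 0.987), with an adjusted p of 0.375 (limma-trend). H2-Ob, its beta chain, averaged 8.46 ± 2.28 CPM in WD+alcohol livers and 8.83 ± 1.83 CPM in control livers (SD, n = 5 and n = 4). H2-Eb2, a little-used beta chain gene, averaged 1.85 ± 0.987 CPM in WD+alcohol livers and 1.74 ± 1.07 CPM in control livers. Of these 5 genes (H2-DMb2, H2-Oa, H2-Ob, H2-Ea and H2-Eb2), 0 were called (against 2.29% of all genes), and their median log2 fold change was -0.002.

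Of 11 genes of endosomal antigen and invariant chain processing, all tested, 6 rose and 0 fell (against 1.61% and 0.678% of all genes), with a median log2 fold change of 0.49 beside -0.001 for all genes. Ctss, cathepsin S, which makes the last cut of the invariant chain, had 139, 102, 96.3, 116 and 133 CPM in WD+alcohol livers, against 50.1, 47.3, 50.7 and 56.8 CPM in control livers. The lowest WD+alcohol value lay well above the highest control, and the fold change was 2.25 (95% interval 1.90 to 2.65; limma-trend adjusted p = 9.04e-05). Lgmn, the asparaginyl endopeptidase legumain, had 31.8, 31.2, 30.8, 31.2 and 37.0 CPM in WD+alcohol livers, against 14.7, 13.2, 14.9 and 13.6 CPM in control livers, a fold change of 2.21 (95% interval 1.91 to 2.55; limma-trend adjusted p = 4.79e-05). Both enzymes also act in lysosomes outside antigen presentation. Ifi30, the thiol reductase GILT that opens disulphide bonds of antigens, averaged 93.6 ± 11.9 CPM in WD+alcohol livers and 65.9 ± 4.4 CPM in control livers (SD, n = 5 and n = 4). The lysosomal cathepsins Ctsb (404 ± 47.3 CPM in WD+alcohol livers and 268 ± 15.1 CPM in control livers), Ctsd (379 ± 44.2 CPM in WD+alcohol livers and 274 ± 14.4 CPM in control livers) and Ctsz (113 ± 16.4 CPM in WD+alcohol livers and 77.2 ± 12.8 CPM in control livers) also rose. Ctsd and Ctsz stood near the threshold (adjusted p = 0.0153 and 0.0315). Ctsd was not called without control 3 (adjusted p = 0.0502), and Ctsz was not called without any one of WD+alcohol 1, 2, 3 and 5 or control 1, 2 and 3 (adjusted p 0.0504 to 0.107) or with no filter (0.0543). Ctsl, Ctsh, Ctse and the protease inhibitors Cst3 and Cstb were not called, with log2 fold changes from -0.03 (Ctsh) to 0.60 (Ctse). Cstb came near the threshold, at 142 ± 16.9 CPM in WD+alcohol livers and 109 ± 9.1 CPM in control livers (limma-trend adjusted p = 0.0535). The list held 7 called genes with DESeq2, with columns brought to one total, with robust limma-trend and without WD+alcohol 4.

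The factors that build the class II enhancer complex were not called, beside 2.29% called among all genes tested. These are the RFX trimer at the X box, CREB1, the NF-Y trimer at the Y box and histone acetyltransferases, and of 10 genes tested, 0 rose and 0 fell, with a median log2 fold change of -0.09. Crebbp, the acetyltransferase CBP and the most abundant of them, averaged 128 ± 7.47 CPM in WD+alcohol livers and 129 ± 5.33 CPM in control livers (SD, n = 5 and n = 4). Upstream of Ciita, 11 of 12 genes of interferon-gamma signalling and myeloid transcription were tested and 0 were called (median log2 fold change 0.13). Jak1, a kinase of the interferon-gamma receptor and the most abundant of these, averaged 264 ± 6.03 CPM in WD+alcohol livers and 242 ± 8.45 CPM in control livers (adjusted p = 0.438). Ifng, the gene of interferon-gamma, had 0 reads in all 9 libraries, a count that cannot tell 0 from levels below 0.455 to 0.809 CPM (3 reads, by library, counting error only).

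Genes of class II surface turnover (3 tested), costimulation (5 of 8 tested) and the CD74 ligand MIF with its co-receptors (4 of 5 tested) held 0 called genes each. Among all genes tested 2.29% were called. Cd83, which protects class II from ubiquitination by MARCH1, averaged 105 ± 10.8 CPM in WD+alcohol livers and 106 ± 15.6 CPM in control livers (SD, n = 5 and n = 4). Cd86, the costimulatory ligand B7-2, averaged 19.3 ± 3.77 CPM in WD+alcohol livers and 18.0 ± 2.71 CPM in control livers. Ddt, a homologue of MIF, averaged 284 ± 61.6 CPM in WD+alcohol livers and 300 ± 26 CPM in control livers. Mif itself went the other way, at 153 ± 16.4 CPM in WD+alcohol livers and 128 ± 17.7 CPM in control livers (limma-trend adjusted p = 0.316). The median log2 fold changes of these lists were -0.008, 0.09 and 0.08. Of 14 genes of the parallel MHC class I pathway, which displays peptides from the cytosol, 0 were called (1 when tested with DESeq2, on columns brought to one total or without control 4), with a median log2 fold change of 0.20. B2m, the light chain of class I, averaged 3231 ± 259 CPM in WD+alcohol livers and 2833 ± 635 CPM in control livers. Over the 8 pathway lists together, 6 of 63 tested genes rose and 0 fell (against 1.61% and 0.678% of all genes). All 6 were endosomal enzymes.

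**Figure D3:**
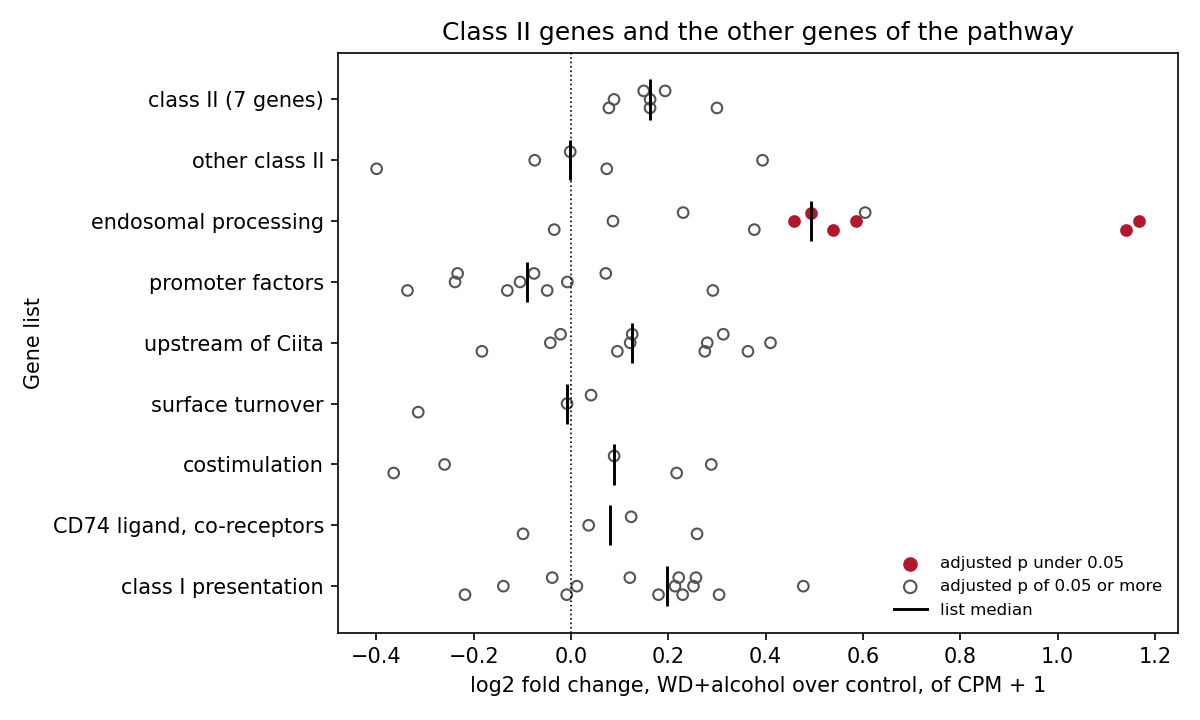
Log2 fold change of CPM + 1, WD+alcohol over control, for each tested gene of the 7 class II genes and of 8 lists of the pathway; filled points passed an adjusted p of 0.05 and black bars are list medians. The 6 filled points all lie in the endosomal processing list, and the class II median is 0.16.

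Markers of the cells that carry class II moved unequally. Among all genes tested 1.61% rose and 0.678% fell. Of 7 macrophage markers 6 rose and 0 fell (median log2 fold change 1.13). Their summed level was 333 to 515 CPM in WD+alcohol livers and 157 to 213 CPM in control livers. Those with the smallest p were Lyz2, lysozyme 2, at 229 ± 51.3 CPM in WD+alcohol livers and 103 ± 7.58 CPM in control livers, and Cd68, a lysosomal glycoprotein, at 24.3 ± 3.52 CPM in WD+alcohol livers and 11.5 ± 1.03 CPM in control livers (SD, n = 5 and n = 4). Of 10 Kupffer cell markers 7 rose and 0 fell (median 1.43), summing to 370 to 667 CPM in WD+alcohol livers and 91.9 to 195 CPM in control livers. Cd5l, a secreted macrophage protein, had a fold change of 5.79 (95% interval 4.30 to 7.81) and C1qc, a complement subunit, one of 3.61 (95% interval 2.80 to 4.67), whereas Timd4 and Cd163, with log2 fold changes of -0.22 and -0.50, were not called.

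The counts of called markers that follow stand beside a share of 2.29% called among all genes tested. Dendritic cell markers held 0 called of 10 tested (median 0.01). They summed to 151 to 181 CPM in WD+alcohol livers and 149 to 181 CPM in control livers. Xcr1, the chemokine receptor of type 1 dendritic cells and the most abundant of them, averaged 47.6 ± 8.06 CPM in WD+alcohol livers and 48.7 ± 2.93 CPM in control livers (SD, n = 5 and n = 4). B and plasma cell markers held 0 called of 5 tested (median -0.02), and summed to 258 to 310 CPM in WD+alcohol livers and 246 to 305 CPM in control livers, most of it Igkc, the kappa light chain, at 199 ± 16.8 CPM in WD+alcohol livers and 211 ± 24.8 CPM in control livers. Cd79b and Cd22 were below the filter (Cd22 at 0.303 to 2.16 CPM in WD+alcohol livers and 0 to 0.21 CPM in control livers), and Cd79a and Mzb1 were listed at 0 in all 9 libraries. Sinusoidal endothelial markers held 0 called of 8 (median 0.36; 1 without control 2, without control 4 or with one total), and summed to 147 to 184 CPM in WD+alcohol livers and 99.9 to 158 CPM in control livers, and Pecam1 was the most abundant, at 40.4 ± 2.03 CPM in WD+alcohol livers and 30.5 ± 6.14 CPM in control livers. T and NK cell markers (6 of 13 tested, most abundant Trbc1), neutrophil markers (3 of 6, most abundant S100a9; 1 called with DESeq2, with one total or without WD+alcohol 1, control 3 or control 4) and cholangiocyte markers (4 of 5, most abundant Spp1) held 0 called genes each, with medians of 0.24, 0.70 and 0.03. The part of any of these cells in the class II values was not tested.

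The level of class II transcripts was also set against the marker sums of the cells that carry them, within each library. The sum of H2-Aa, H2-Ab1, H2-Eb1 and Cd74 was 2293 ± 146 CPM in WD+alcohol livers and 2071 ± 116 CPM in control livers (SD, n = 5 and n = 4). Per unit of the summed macrophage markers it was 4.41, 7.55, 6.18, 5.52 and 4.92 in WD+alcohol livers, against 10.99, 9.90, 13.1 and 10.3 in control livers. All 5 WD+alcohol ratios lay below all 4 control ratios, and the group means differed by a factor of 0.516. Per unit of the summed Kupffer markers the ratio was 3.78, 6.80, 5.17, 4.69 and 3.52 in WD+alcohol livers, against 14.7, 12.3, 22.5 and 11.2 in control livers. These groups did not overlap either. Both ratios have as denominator a list whose genes mostly rose, while the class II sum itself was not lower. Per unit of the summed B and plasma cell markers without Igkc, Ighm and Jchain, the class II sum was 94.2 ± 19.4 in WD+alcohol livers and 84.7 ± 3.17 in control livers (SD, n = 5 and n = 4), with overlapping values. Per unit of the summed class I list, the class II sum was 0.379 ± 0.039 in WD+alcohol livers and 0.376 ± 0.0629 in control livers. The ratios describe sums over chosen genes and carry no test.

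**Figure D4:**
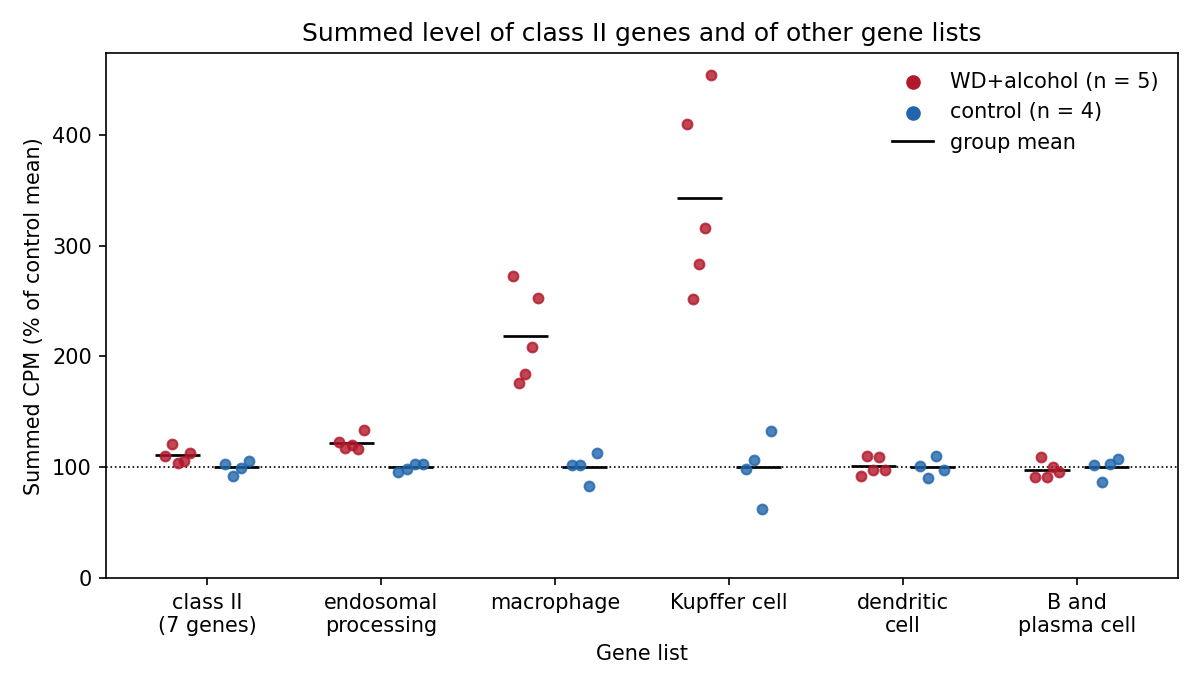
Summed CPM of 6 gene lists in each library, as a percentage of the control mean (dotted line at 100), for WD+alcohol (red, n = 5) and control livers (blue, n = 4), with group means as black lines. Macrophage and Kupffer cell sums of the 2 groups lie apart, while class II, dendritic cell and B cell sums overlap.

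The genes whose variation between mice most resembled that of the class II genes were taken from the 11023 genes averaging 5 CPM or more, by the Pearson r over 9 libraries between each gene and the mean standardised profile of the 7 genes, all centred on their group means. They were Rnf19a (r = 0.978), Ptpn1 (0.971), Gm6136 (0.968), Tagln2 (0.963) and Zfp148 (0.960), the extremes of a search whose median r was -0.007. The points share libraries and scaling, the values come from a selection, and no p is given. None of the 5 was called between the groups (adjusted p 0.550 to 0.972, limma-trend).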

How the data were processed

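Liver RNA of 9 mice was extracted with Trizol and made into 3′ mRNA libraries with the Collibri kit, per the labels' protocols. The submitters' processing notes list Trim Galore 0.6.0, cutadapt 1.18, STAR, HTSeq 0.11.0, edgeR 3.28.1, R 3.6.3 and the build GRCm39 (mm39), with no order. Strand and multimapping settings are not given in the sources used here. The deposited values are a signal, CPM scaled by TMM by the authors. All positive values (100%, relative tolerance 1e-06) were whole multiples of the smallest of their column, so whole reads were recovered, and 1 read was worth 0.152 to 0.27 CPM. The labels' titles gave the groups, and the library names in the labels tied columns to samples. The design gives 5 and 4 mice, taken as 1 library each.

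The test was limma-trend (two-sided; limma 3.58.1 in R 4.3.3) on log2(CPM + 1), over the 14759 genes averaging 1 CPM or more, with Benjamini-Hochberg adjustment over all of them and a threshold of 0.05. Fold changes are on that scale and slightly understate those of low genes. Alternatives were pseudocounts of 0.25 and 5, no filter, a filter at 5 CPM, columns brought to one total, median-of-ratios scaling, robust limma-trend, a replicate block, each library left out in turn, and edgeR 4.0.16 and DESeq2 1.42.0 on the recovered reads. The procedure was tested on simulated counts with changes larger than those of the class II genes, so its power for changes of their size was not tested. The class II genes and all lists were chosen with earlier results of these data known. The text names all class II genes, the called genes of each pathway list (of marker lists, the 2 with the smallest p) or else the most abundant, and the 5 most similar genes; other genes were chosen after their values were seen. Coordinates are those of the RefSeq promoter windows (GRCm38.p6), not of the authors' build, and gene overlaps come from GENCODE M21. Figures used Python 3.11.15 and matplotlib 3.10.9.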

Additional observations from a re-analysis of the deposited data

Results flagged for a closer look

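H2-DMb2, the copy of H2-DMb1, had 5.61 CPM in WD+alcohol 5, set apart from the next lowest WD+alcohol value of 6.97 CPM by a gap of 0.795 of the range of the group. It rests on 28 reads, and was the 1 library that stood apart in this way among 24 sets of values (12 class II genes in 2 groups). Chance alone sets about 1 in 20 groups apart.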

How the results depend on the processing

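None of the 7 class II genes was called under any of the 19 alternatives, and all 7 log2 fold changes stayed above 0, from 0.001 (H2-DMb1 without control 3) to 0.36 (H2-DMa without control 1). The number with an unadjusted p under 0.05 was 1 to 4. The number of all genes called was 545 with DESeq2, against 338 and 315 with edgeR, and leaving out 1 library gave 201 to 387. With the replicate number as a block, which leaves WD+alcohol 5 without a partner, it was 112, and 2 pathway genes were called (Ctss and Lgmn) against 6. Same-numbered libraries did not deviate together (correlations -0.311 to -0.008 over 4 numbers), so no pairing was seen. The labels do not say whether the numbers pair the mice, and 4 correlations cannot exclude it. Higher genes were 365 with columns brought to one total, where the median over all genes was a log2 fold change of 0.049. Among the less abundant class II genes, H2-DMb2 (-0.002) turned to 0.002 with a pseudocount of 0.25, 0.045 with one total and 0.06 with the block, and leaving out 1 library gave -0.18 to 0.10. Leaving out 1 library also turned H2-Eb2 (-0.106 to 0.315) and H2-Ob (-0.211 to 0.087). The cause was not tested. Depth limits H2-Ea, H2-Eb2, H2-Oa, H2-Ob and H2-DMb2, which rest on 0 to 74 reads a library.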

Other observations

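H2-DMa per H2-Oa, the DM alpha chain over the DO alpha chain, was chosen after the values were seen and is given with no test. It was 11.1, 11.1, 9.22, 7.48 and 12.7 in WD+alcohol livers, against 7.16, 5.13, 7.13 and 4.70 in control livers. The groups did not overlap, though neither gene was called on its own. The beta chains gave no such gap: H2-DMb1 per H2-Ob ran from 3.89 to 8.31 in WD+alcohol livers and from 3.98 to 6.83 in control livers.

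B cell markers did not share one level. Pax5, a B cell transcription factor, averaged 20.7 ± 4.43 CPM in WD+alcohol livers and 22.4 ± 1.29 CPM in control livers (SD, n = 5 and n = 4). Ms4a1, which encodes CD20, averaged 2.14 ± 0.834 CPM in WD+alcohol livers and 1.36 ± 0.488 CPM in control livers, and Cd79a was listed at 0 in all 9 libraries.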
